A study of Mus musculus with 18 samples.

Results

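Blood stem cells and their progeny are told apart by the proteins on their surface, and 10 genes that encode such markers are described here: Ly6a, Kit, Slamf1, Cd48, Eng, Itga2b, Fcgr3, Cd34, Procr and Flt3. They were chosen by name, as genes of the antibodies used to sort stem cells and erythroid-megakaryocyte progenitors or as widely used stem cell markers, out of 53458 annotated genes. 9 of the 10 passed the filter on low counts that left 21565 genes for testing; Fcgr3 did not, and its reads are given without a test.

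The libraries are bulk RNA-seq of cells sorted from the bone marrow of C57BL/6 mice that are either Ptbp1 fl/fl (WT here) or Ptbp1 knockout (KO here), with 3 biological replicates for each of 6 groups, 18 libraries in all. Ptbp1 encodes an RNA-binding protein that represses many exons. The labels do not name the Cre line, the age of the mice or whether animals were pooled. How completely and in which cells Ptbp1 was lost is not known, and the reads give only its transcript level in bulk. Hematopoietic stem cells (HSC) were sorted as lineage-negative cells positive for Sca-1, c-kit and CD150 and negative for CD48. Progenitors of megakaryocytes and red cells (preMegE) were sorted as lineage-negative, Sca-1-negative, c-kit-positive cells without CD41 or FcγRII/III, with CD150 and without CD105, and their erythroid successors (preCFU-E) by the same gate but with CD105.

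The antigens of these gates map to genes as follows. Sca-1, a small lipid-anchored protein, is encoded by Ly6a. The receptor tyrosine kinase c-kit, which binds stem cell factor, is encoded by Kit. CD150 and CD48 belong to the SLAM family of immune receptors and are encoded by the neighbouring genes Slamf1 and Cd48. CD105, or endoglin, is an accessory receptor for ligands of the TGF-β family and is encoded by Eng. CD41 is the integrin αIIb subunit of the platelet fibrinogen receptor, encoded by Itga2b, and FcγRIII is a receptor for the constant part of antibodies, encoded by Fcgr3. The other members were not used in these gates: Cd34 encodes a sialomucin, Procr the endothelial protein C receptor (EPCR), and Flt3 the receptor of FLT3 ligand, which marks multipotent and lymphoid progenitors. A gate acts on protein at the cell surface, and only RNA was measured here, so a transcript level shows neither that a gate worked nor that it failed.

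In the mm10 files with GENCODE M21 gene models, Ly6a (ENSMUSG00000075602) lies on the minus strand at chr15:74994877-74998031 and Kit (ENSMUSG00000005672) on the plus strand at chr5:75574916-75656722. Cd48 (ENSMUSG00000015355, chr1:171682009-171705258) and Slamf1 (ENSMUSG00000015316, chr1:171767127-171801184) lie on the plus strand of one chromosome, which also holds Cd34 (ENSMUSG00000016494, chr1:194938819-194961279, plus strand) and Fcgr3 (ENSMUSG00000059498, chr1:171051174-171064935, minus strand). Eng (ENSMUSG00000026814) is at chr2:32646595-32682669 and Procr (ENSMUSG00000027611) at chr2:155751117-155755471, both on the plus strand. Itga2b (ENSMUSG00000034664) is at chr11:102453297-102470122 and Flt3 (ENSMUSG00000042817) at chr5:147330741-147400489, both on the minus strand. No strand setting is stated for these libraries, so reads of overlapping genes may be shared. Levels are given in CPM, the read count scaled to the library's total after that total was multiplied by the library's normalization factor (TMM). Eng overlaps Fpgs on the opposite strand (at most 54.4 CPM in any library). Cd34 overlaps the antisense gene Gm16897 (at most 5.57 CPM), and Cd48 overlaps Gm37010 on the same strand (at most 14.6 CPM).

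Each library held 15956408 to 29226287 estimated reads, and mitochondrial ribosomal RNA took 12.7 to 33.6% of them. Ptbp1 itself checked the labels: it stood at 196 to 221 CPM in the HSC libraries of WT and 90.3 to 108 in those of KO, at 596 to 787 (WT) and 187 to 232 (KO) in preMegE, and at 1116 to 1345 (WT) and 298 to 318 (KO) in preCFU-E. Its paralog Ptbp2 was higher in every KO library than in any WT library of the same population. Estimated over WT and KO libraries together, the biological coefficient of variation was highest in HSC, at 0.474, where preMegE gave 0.238 and preCFU-E 0.127. It was not estimated for each genotype alone. Every one of the 6 HSC libraries carried Xist at 6434 to 8617 CPM and all 12 progenitor libraries at no more than 1.12 CPM, while the Y-linked Eif2s3y stood at 38.3 to 85.2 CPM in the progenitors; the sex of the animals and the step from HSC to progenitors therefore cannot be told apart in any comparison of HSC with preMegE. Among marker genes of cell types, summed levels of the 11 stem cell markers, which include Procr, were 1609 to 1693 CPM in HSC WT, 1265 to 1527 in HSC KO and 107 to 268 in the progenitors. Those of the 10 erythroid markers were 380 to 441 CPM in HSC WT, 239 to 361 in HSC KO, 2030 to 2584 in preMegE and 9427 to 11960 in preCFU-E. The 10 megakaryocyte markers, which include Itga2b, summed to 558 to 674 CPM in HSC of both genotypes, 161 to 305 in preMegE and 38.1 to 66.3 in preCFU-E. The 11 granulocyte and monocyte markers reached 76.1 CPM in sum, the 9 macrophage markers 32.1, the 7 endothelial markers 58.2, the 9 lymphoid markers 9.91 and the 7 mast cell and basophil markers 66.3, the last highest in preMegE, and Ly6g was at 0 in all libraries. In bulk RNA, fewer cells carrying a transcript and less RNA per cell cannot be told apart.

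3 of the members are annotated with isoforms that change the encoded protein, and their junctions are shown because the isoform shares given further on are shares of these forms. The short form of Cd34 (ENSMUST00000110815) keeps 156 bases that the long form (ENSMUST00000016638) splices out and runs into a stop codon, so that 975 coding bases remain in place of 1146 (chr1:194959780-194959794 for the bases in capitals, which end with the stop codon). The CD34 protein it encodes has a truncated cytoplasmic tail.
Cd34 long form: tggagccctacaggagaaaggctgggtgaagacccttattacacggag
Cd34 short form: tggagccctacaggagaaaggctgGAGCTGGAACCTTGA
2 forms of Kit (ENSMUST00000005815 with and ENSMUST00000144270 without the insert) differ by 12 bases at an exon end (capitals, chr5:75639147-75639158), which add codons to the extracellular part of c-kit near the membrane.
Kit without insert: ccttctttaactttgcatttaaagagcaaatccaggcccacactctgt
Kit with insert: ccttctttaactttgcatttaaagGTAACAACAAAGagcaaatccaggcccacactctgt
The short form of Eng (ENSMUST00000113272) reads on past the last donor site that the long form (ENSMUST00000009705) uses, with 89 bases up to and including a stop codon (capitals, chr2:32681298-32681386), which leaves 1923 coding bases in place of 1959.
Eng long form: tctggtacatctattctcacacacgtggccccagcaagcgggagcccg
Eng short form: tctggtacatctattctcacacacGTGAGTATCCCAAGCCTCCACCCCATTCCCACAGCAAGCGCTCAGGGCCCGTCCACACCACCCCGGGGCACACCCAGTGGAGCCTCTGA
All 6 were read from GENCODE M21 transcripts of mm10, 5′ to 3′ on the plus strand, with 24 bases on each side of a junction where the transcript is shown spliced.

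**Figure D1:**
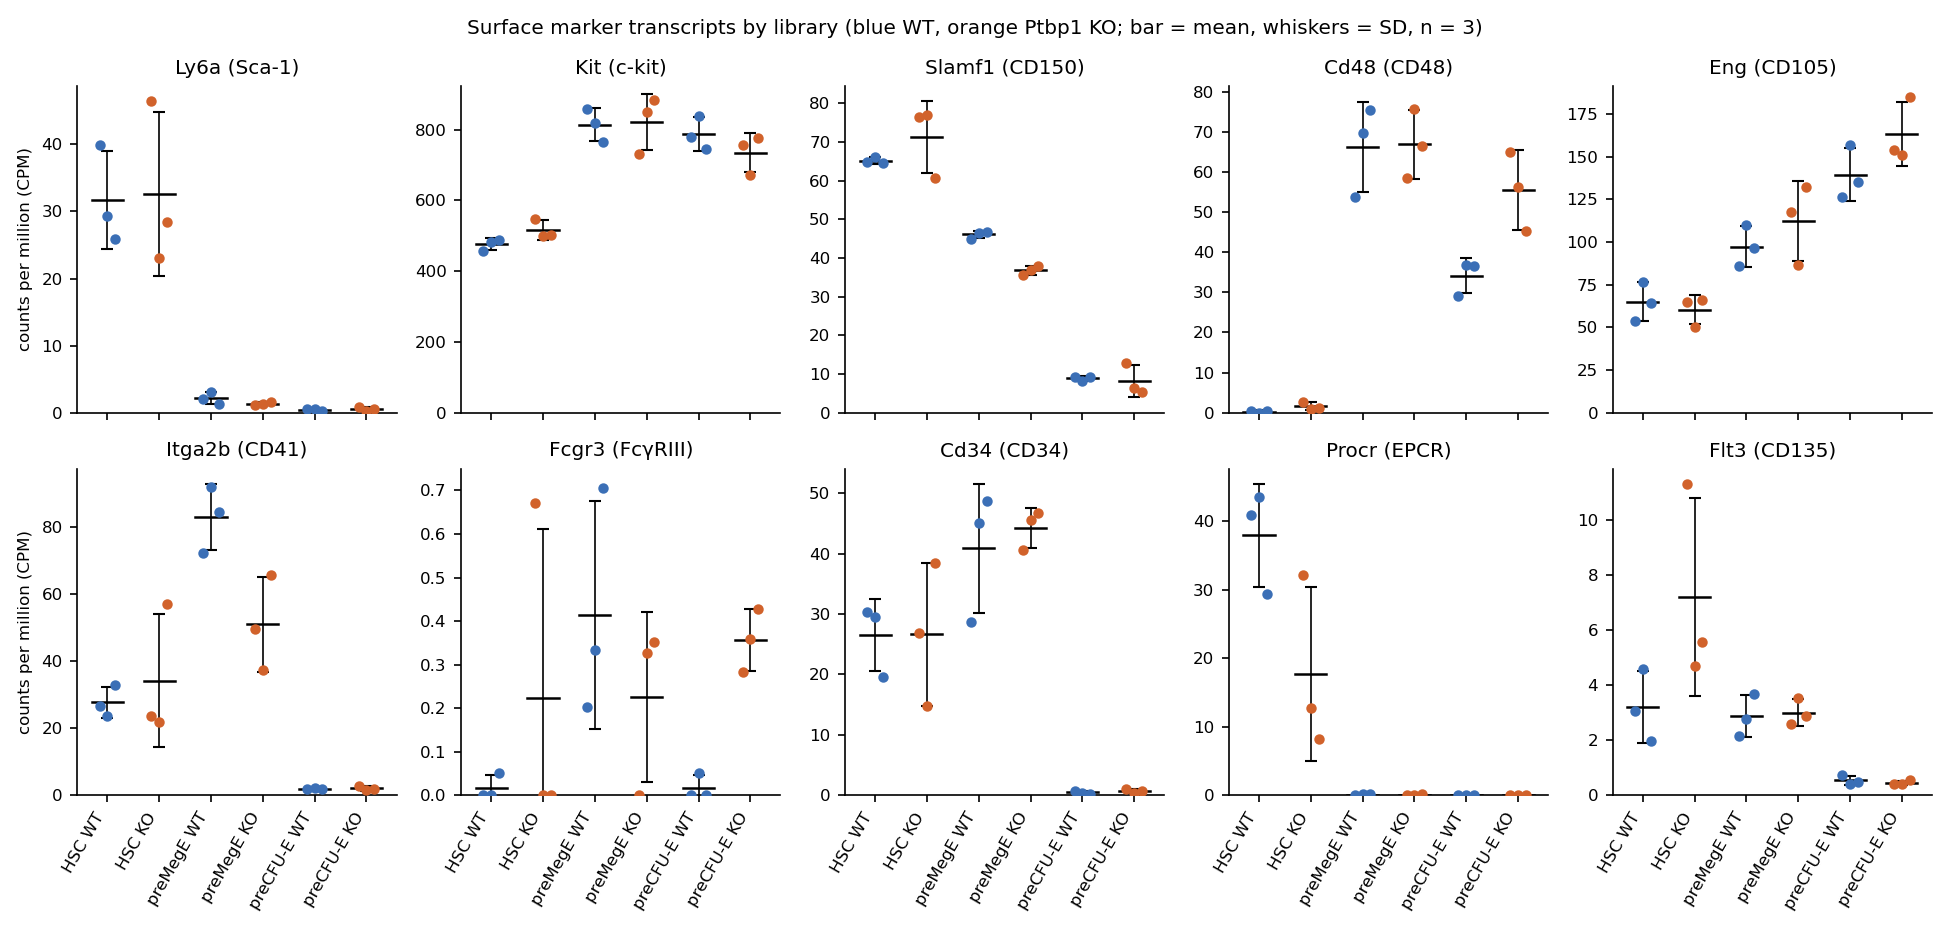
Scaled read counts (CPM, y axis, from 0) of the 10 surface marker genes in each library, by population and genotype (x axis); points are libraries, bars means and whiskers SD over 3 libraries. Ly6a and Procr are high in HSC alone, Cd48 is near 0 in HSC, and Itga2b and Cd34 are near 0 in preCFU-E.

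From HSC to preMegE in WT mice, the markers moved far apart. Ly6a fell 14.4-fold and Procr 330-fold, while Cd48 rose 211-fold and Itga2b, Kit and Eng rose by smaller amounts. 7 of the 9 tested members passed the test at an adjusted p under 0.05 (edgeR, Benjamini-Hochberg over all tested genes), 4 higher and 3 lower, where 53.7% of all tested genes did (25.5% higher and 28.2% lower). All libraries of one population lay above all of the other for 7 of the 9, and for 64.1% of all tested genes. The median log2 change of all tested genes was -0.43 and that of the members 0.58. The log2 changes below are not corrected for that shift unless they are given relative to the median gene.

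Ly6a, the gene of the antigen that separates HSC from the progenitor gates, stood at 39.9, 29.3 and 25.9 CPM in the HSC WT libraries and at 2.06, 3.12 and 1.37 in preMegE WT. Every HSC library lay above every preMegE library. The log2 change was -3.85 ± 0.379 (SE), and -3.42 relative to the median gene, with an edgeR adjusted p of 6.47e-08. Procr stood at 40.9, 43.5 and 29.5 CPM in HSC WT and rested on 1, 4 and 3 reads in the preMegE WT libraries. Its log2 change of -8.36 ± 0.611 (adjusted p = 9.80e-09, edgeR) therefore rests on 8 reads in all on the preMegE side. Procr was not used in any gate.

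Cd48, whose protein is excluded from the HSC gate and not named in the gates of the progenitors, gave 14, 0 and 7 reads in HSC WT and 1331, 1900 and 1601 in preMegE WT. In CPM this is 0.533, 0 and 0.353 against 53.8, 69.8 and 75.4, where 3 reads in an HSC WT library correspond to 0.114 to 0.151 CPM. The log2 change was 7.72 ± 0.465 (adjusted p = 1.08e-10, edgeR).

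Itga2b rose although preMegE were gated as CD41-negative. It stood at 26.6, 23.7 and 32.9 CPM in HSC WT and at 72.4, 92.0 and 84.4 in preMegE WT, with a log2 change of 1.58 ± 0.292 (adjusted p = 1.54e-04, edgeR). Its protein-coding transcript stood at 7.87 ± 1.63 TPM, a level scaled to transcript length and library, in HSC WT and 24.8 ± 6.92 in preMegE WT (SD, n = 3). Kit rose from 458, 484 and 488 CPM to 859, 820 and 765 (log2 change 0.77 ± 0.109, adjusted p = 6.73e-06, edgeR). Eng rose from 53.9, 76.7 and 64.4 CPM to 85.7, 110 and 96.6 (log2 change 0.58 ± 0.170, adjusted p = 0.00732, edgeR), although preMegE were gated as CD105-negative and HSC without regard to CD105. With counts scaled for transcript length, Kit changed by 0.04, Eng by 0.40 and Itga2b by 0.29 on the log2 scale, and none of the 3 passed the test; with reads of protein-coding transcripts alone Eng changed by 0.14 (adjusted p = 0.475) while Kit and Itga2b kept their calls.

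Slamf1, positive in all 3 gates, was at 64.8, 66.2 and 64.6 CPM in HSC WT and 44.9, 46.5 and 46.8 in preMegE WT. The groups did not overlap, but the log2 change of -0.50 (adjusted p = 0.0465, edgeR) is -0.07 relative to the median gene, and the call was lost when any one of the 6 libraries was left out (adjusted p 0.0962 to 0.145). Cd34 stood at 30.4, 29.4 and 19.6 CPM in HSC WT and 28.8, 45.1 and 48.7 in preMegE WT, with overlapping groups and a log2 change of 0.62 ± 0.292 (adjusted p = 0.0758, edgeR); it passed without preMegE WT replicate 1 (adjusted p = 0.0297), without a filter on low counts (0.0392) and with these groups fitted alone (0.0444). Flt3 was low in both, at 1.98 to 4.59 CPM in HSC WT and 2.17 to 3.69 in preMegE WT, and its log2 change was -0.15 ± 0.408 (adjusted p = 0.761, edgeR).

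From preMegE to preCFU-E in WT mice, most markers fell. Cd34 fell 78.6-fold, Itga2b 41.4-fold, Slamf1 5.18-fold, Flt3 5.10-fold, Ly6a 4.48-fold and Cd48 1.94-fold, and Eng rose 1.43-fold. 7 of the 9 tested members passed the test, 1 higher and 6 lower, where 26.8% of all tested genes did (15.6% higher and 11.2% lower). The groups did not overlap for 8 of the 9, and for 50.3% of all tested genes. The median log2 change was -2.35 over the 9 tested members and -0.18 over all tested genes.

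Eng is the gene whose protein separates the preMegE and preCFU-E gates. It stood at 126, 157 and 136 CPM in preCFU-E WT against the 85.7 to 110 CPM of preMegE WT, without overlap. The log2 change was 0.52 ± 0.170 (adjusted p = 0.0261, edgeR). It no longer passed when any one of 5 of the 6 libraries was left out (all but preMegE WT replicate 2), nor with reads of protein-coding transcripts alone (log2 change 0.28, adjusted p = 0.211), length-scaled counts, no filter on low counts or mitochondrial genes left out.

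Cd34, absent from the gates, stood at 0.709, 0.479 and 0.295 CPM in preCFU-E WT, which is 18.1, 9.2 and 4.1 estimated reads, and its log2 change from preMegE was -6.30 ± 0.406 (adjusted p = 2.88e-10, edgeR). Itga2b stood at 1.80, 2.34 and 1.85 CPM (log2 change -5.37 ± 0.360, adjusted p = 5.28e-10, edgeR). Both progenitor gates exclude CD41, and the transcript was far lower in preCFU-E than in preMegE. Slamf1 stood at 9.26, 8.21 and 9.17 CPM (log2 change -2.37 ± 0.222, adjusted p = 6.07e-08, edgeR), although both gates require CD150.

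Ly6a fell to 0.508, 0.624 and 0.284 CPM, or 13, 12 and 4 reads (log2 change -2.16 ± 0.434, adjusted p = 6.20e-04, edgeR), within cells gated as Sca-1-negative on both sides. Flt3 fell to 0.728, 0.419 and 0.502 CPM, or 18.6, 8.0 and 7.1 estimated reads (log2 change -2.35 ± 0.455, adjusted p = 4.45e-04, edgeR). Its protein-coding transcripts were estimated at 0 TPM in every preCFU-E library of both genotypes. Cd48 stood at 29.2, 36.7 and 36.6 CPM in preCFU-E WT, below all 3 preMegE WT libraries (log2 change -0.96 ± 0.308, adjusted p = 0.0248, edgeR). That call was lost when any one of 5 of the 6 libraries was left out (adjusted p up to 0.0908, with preMegE WT replicate 1 as the exception), without a filter on low counts and with length-scaled counts. Kit, which both gates require, stood at 746 to 840 CPM in preCFU-E WT and did not pass (log2 change -0.05 ± 0.108, adjusted p = 0.798, edgeR), but fell by 0.29 with reads of protein-coding transcripts alone (adjusted p = 0.0299).

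Procr gave 0 reads in each of the 3 preCFU-E WT and 3 preCFU-E KO libraries, where 3 reads would be 0.117 to 0.213 CPM; no fold change from preMegE is given because preMegE held only 1 to 4 reads a library. Fcgr3 gave at most 19 reads in any of the 18 libraries. It gave 5, 9.1 and 15 estimated reads in preMegE WT, 0, 5 and 8 in preMegE KO, 0, 1 and 0 in preCFU-E WT and 4, 6 and 8 in preCFU-E KO; in HSC WT it gave 0, 0 and 1, and in HSC KO 19, 0 and 0. The antibody of the gate also recognises FcγRII, whose gene Fcgr2b was detected: 1.08 ± 0.410 CPM in HSC WT, 5.95 ± 0.456 in preMegE WT and 0.302 ± 0.201 in preCFU-E WT (SD, n = 3). Fcgr2b passed the test in both steps, with log2 changes of 2.46 ± 0.440 (adjusted p = 1.08e-04) and -4.31 ± 0.505 (adjusted p = 1.38e-06, edgeR). Both progenitor gates exclude FcγRII/III, and the HSC gate does not name it.

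**Figure D2:**
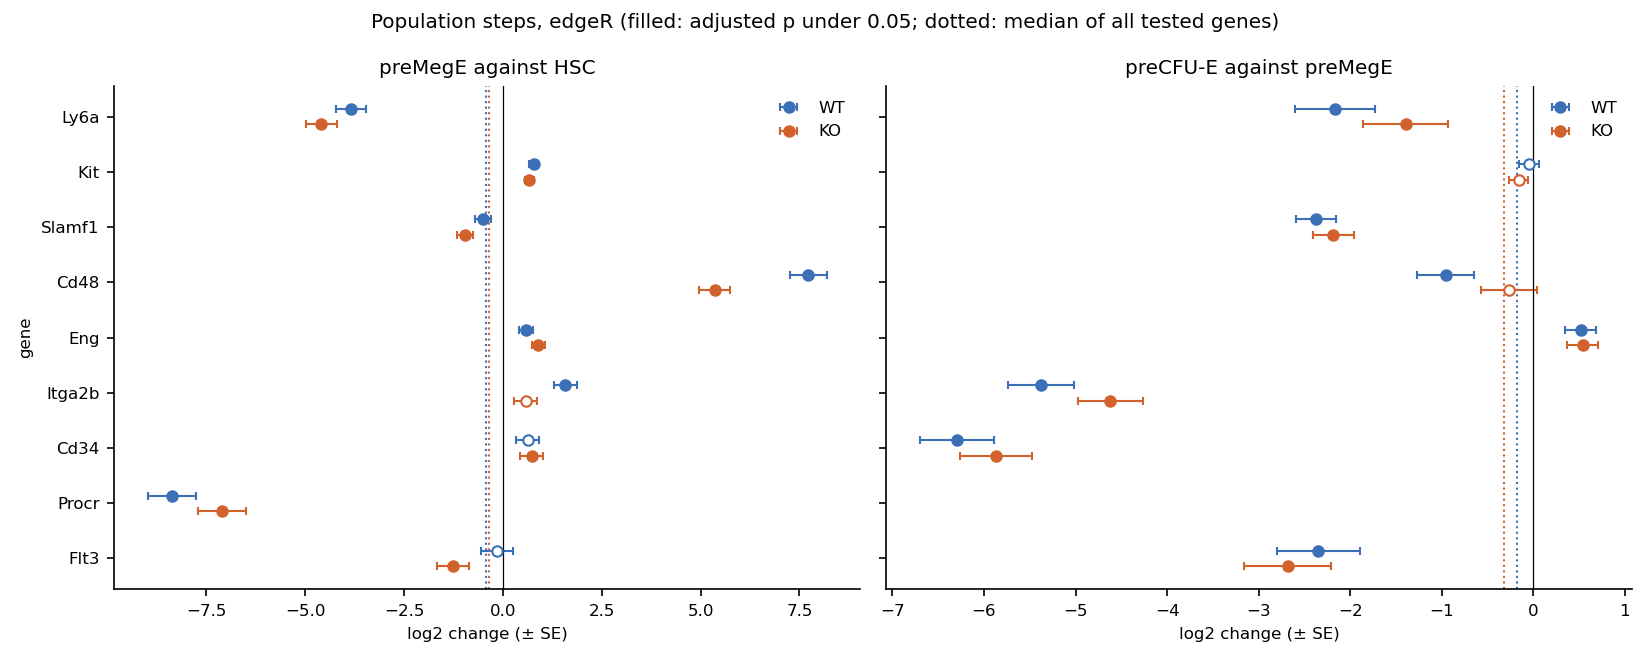
Log2 change with SE (x axis) of the 9 tested members (y axis) from HSC to preMegE and from preMegE to preCFU-E, in WT (blue) and Ptbp1 KO (orange); filled points passed the edgeR test, and dotted lines mark the median of all tested genes. Procr is not drawn in the second step, where its reads were too few; the largest changes are the loss of Procr and gain of Cd48 in the first step, and the loss of Cd34 and Itga2b in the second.

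Levels were compared between genes only per length, as TPM of protein-coding transcripts within WT libraries. In HSC WT, Kit (98.6 ± 5.38 TPM, SD, n = 3) and Ly6a (67.0 ± 17.9) led, followed by Eng (30.0 ± 1.60), Procr (21.6 ± 0.583), Slamf1 (20.9 ± 2.25) and Cd34 (13.7 ± 3.48); Procr and Slamf1 overlapped between libraries, and the others of these did not overlap with their neighbours in this order. Itga2b (7.87 ± 1.63), Flt3 (0.743 ± 0.500) and Cd48 (0.357 ± 0.332) came next, and Fcgr3 was last, at 0 TPM in all 3 libraries; Itga2b overlapped with Cd34, and Flt3 with Cd48. In preMegE WT, Kit (146 ± 19.6 TPM) stood above Cd48 (65.1 ± 19.7), Eng (35.0 ± 9.65) and Itga2b (24.8 ± 6.92), followed by Cd34 (17.3 ± 6.45) and Slamf1 (15.6 ± 2.79); from Cd48 to Slamf1, each overlapped with the next. In preCFU-E WT 3 members remained above 20 TPM, namely Kit (115 ± 14.6), Eng (41.3 ± 5.22) and Cd48 (27.2 ± 3.79), without overlap, and Slamf1 followed at 2.43 ± 0.0791.

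**Figure D3:**
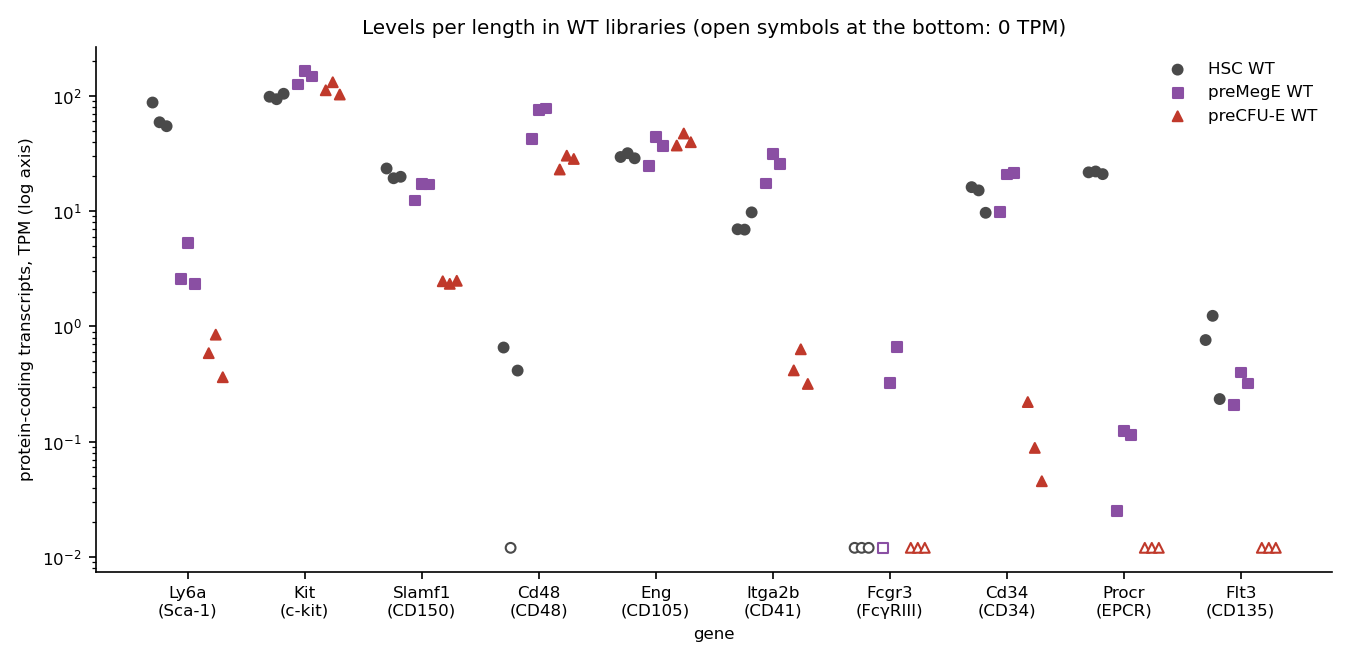
Protein-coding transcript level per length (TPM, log axis) of the 10 genes in each WT library; filled symbols are libraries and open symbols at the bottom stand for 0 TPM. Kit lies between 93.5 and 165 TPM in every WT library, while Ly6a, Cd48, Cd34 and Procr span wide ranges between populations.

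The same steps were compared in KO mice, where the libraries are others than in WT. From HSC to preMegE 8 of 9 tested members passed (4 higher and 4 lower), against 52.7% of all tested genes (25.4% higher and 27.3% lower): Ly6a (log2 change -4.59), Procr (-7.10), Slamf1 (-0.95) and Flt3 (-1.27) fell and Cd48 (5.35), Eng (0.90), Cd34 (0.73) and Kit (0.67) rose. Itga2b changed by 0.58 ± 0.286 (adjusted p = 0.0934, edgeR). Without HSC KO replicate 3, the library with the highest Itga2b of that group, it was 1.18 (adjusted p = 4.41e-04), and it also passed with limma voom (0.72, adjusted p = 0.0260). With length-scaled counts the direction turned for Kit (-0.21), Eng (-0.01) and Itga2b (-0.47), none of which passed there. Slamf1 lost its call there too (-0.48, adjusted p = 0.0957). Cd34 no longer passed without any one of 5 of the 6 libraries (all but HSC KO replicate 3, adjusted p up to 0.157), with reads of protein-coding transcripts alone (0.28, adjusted p = 0.477), RLE factors, DESeq2 or the groups fitted alone, and Flt3 without HSC KO replicate 1 (adjusted p = 0.148) or preMegE KO replicate 3 (adjusted p = 0.0506). From preMegE to preCFU-E 6 passed (1 higher and 5 lower), against 36.1% of all tested genes (18.4% higher and 17.6% lower): Eng rose (0.54), and Cd34 (-5.87), Itga2b (-4.62), Flt3 (-2.68), Slamf1 (-2.18) and Ly6a (-1.39) fell. Ly6a lost its call without preMegE KO replicate 3, preCFU-E KO replicate 2 or preCFU-E KO replicate 3 (adjusted p 0.0599 to 0.108) and with limma voom (-1.56, adjusted p = 0.14), and Eng without preMegE KO replicate 2 or any of the 3 preCFU-E KO libraries (adjusted p 0.0590 to 0.134) or with reads of protein-coding transcripts alone (0.21, adjusted p = 0.326). Cd48 changed by -0.27 ± 0.306 (adjusted p = 0.507, edgeR) and passed with these groups fitted alone (-0.39, adjusted p = 0.0480). Kit changed by -0.16 ± 0.108 (adjusted p = 0.251, edgeR), but fell with reads of protein-coding transcripts alone (-0.48, adjusted p = 8.71e-04) and with these groups fitted alone (-0.28, adjusted p = 0.0470). The groups did not overlap for 8 of the 9 in the first step and 7 in the second, and for 54.1% and 53.5% of all tested genes.

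Loss of Ptbp1 was then compared within each population. In HSC 1 of 9 tested members passed, Cd48, which was higher in KO; 0.844% of all tested genes passed (0.385% higher). That share is 182 genes, and it was 89 genes without HSC WT replicate 2, 395 without HSC KO replicate 1 and 595 without HSC KO replicate 3. 0 of 9 passed in either progenitor population, where 0.0603% and 0.153% of all tested genes did, and 1 member in each population had an unadjusted p under 0.05 (edgeR). DESeq2 and limma voom also called 0 members in both.

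In HSC, Cd48 gave 14, 0 and 7 reads in the WT and 76, 19 and 29 in the KO libraries, or 0.533, 0 and 0.353 CPM against 2.69, 0.833 and 1.28. Each KO library lay above each WT library, and KO replicate 1 was the highest. The log2 change was 2.38 ± 0.505 (5.21-fold, adjusted p = 0.0311, edgeR). The HSC KO level remained far below the 53.8 to 75.8 CPM of the 6 preMegE libraries. The call was lost without HSC WT replicate 2 (adjusted p = 0.0684), HSC WT replicate 3 (0.0783) or HSC KO replicate 1 (0.0740), without a filter on low counts (0.0720), with limma voom (0.0969) and with the HSC libraries fitted alone (0.800); over all alternatives run the log2 change lay between 1.76 and 3.21. The difference of the KO effect between preMegE and HSC was -2.37 ± 0.596 on the log2 scale (adjusted p = 0.201, edgeR), and DESeq2 called it (-2.41, adjusted p = 0.0025). For that difference 0 members passed with edgeR and 2 had an unadjusted p under 0.05, where 0.0325% of all tested genes passed. The 11 granulocyte and monocyte markers summed to 44.1 to 50.6 CPM in HSC WT and 27.8 to 52.9 in HSC KO, highest in KO replicate 1. The 9 lymphoid markers summed to 3.54 to 6.24 and 2.20 to 4.35 CPM and the 9 macrophage markers to 18.6 to 32.1 and 9.003 to 21.8. 3 sums did not overlap between genotypes in HSC and were lower in KO: those of the stem cell markers (1609 to 1693 CPM in WT, 1265 to 1527 in KO), the erythroid markers (380 to 441 and 239 to 361) and the 15 lineage depletion antigens (43.4 to 61.9 and 30.8 to 42.4). The part of these sums in the Cd48 result, and in that of Procr, was not tested.

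2 other HSC members had an unadjusted p under 0.05. Procr stood at 40.9, 43.5 and 29.5 CPM in HSC WT and at 32.2, 12.8 and 8.18 in HSC KO, with one KO library inside the WT range (log2 change -1.10 ± 0.397, adjusted p = 0.220, edgeR). Without that library, HSC KO replicate 1, the change was -1.85 (adjusted p = 0.0172, edgeR), and limma voom called it over all libraries (-1.28, adjusted p = 0.0339). In TPM of protein-coding transcripts the groups of Procr did not overlap, at 21.7, 22.1 and 20.9 in WT and 17.95, 6.72 and 9.34 in KO. Flt3 stood at 3.06, 4.59 and 1.98 CPM in HSC WT and at 11.3, 4.71 and 5.57 in HSC KO, with no overlap (log2 change 1.17 ± 0.408, adjusted p = 0.191, edgeR). In TPM of its protein-coding transcripts the groups did overlap, at 0.761, 1.24 and 0.234 in WT and 2.58, 0.494 and 1.64 in KO. HSC KO replicate 1 was also the highest of the HSC libraries in Flt3, Fcgr3 and Ly6a.

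The other HSC members gave the following values. Kit stood at 458 to 488 CPM in WT and 500 to 548 in KO, without overlap, with a log2 change of 0.12 ± 0.108 (adjusted p = 0.683, edgeR). Slamf1 stood at 76.4, 77.1 and 60.7 CPM in KO around the WT values of 64.6 to 66.2, Eng at 50.4 to 66.2, and Cd34 at 14.8 to 38.5. Itga2b stood at 23.8, 21.8 and 57.2 CPM in KO, with the highest above and the lowest below the WT range of 23.7 to 32.9. Ly6a stood at 46.4, 23.1 and 28.4 CPM in KO. The adjusted p of these 5 lay between 0.692 and 0.994 (edgeR). In CPM, 3 of the 9 tested members did not overlap between genotypes in HSC (Cd48, Flt3 and Kit). Of all tested genes 12.1% did not overlap.

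In preMegE the 2 members without overlap were Slamf1 and Itga2b, where 12.3% of all tested genes did not overlap. Slamf1 stood at 44.9, 46.5 and 46.8 CPM in WT and 35.6, 36.9 and 38.0 in KO (log2 change -0.32 ± 0.208, adjusted p = 1, edgeR). Itga2b stood at 72.4, 92.0 and 84.4 CPM in WT and 49.7, 37.5 and 65.8 in KO (log2 change -0.70 ± 0.286, adjusted p = 0.939, edgeR). The difference of its KO effect between preMegE and HSC was -1.003 ± 0.405 (adjusted p = 0.508, edgeR). The 10 megakaryocyte markers, with Itga2b among them, summed to 257 to 305 CPM in preMegE WT and 161 to 219 in preMegE KO, and their part in the Itga2b values was not tested. Ly6a stood at 2.06, 3.12 and 1.37 CPM in WT and 1.10, 1.31 and 1.62 in KO, from 20 to 85 reads a library (log2 change -0.70 ± 0.385, adjusted p = 1, edgeR). The log2 changes of the other tested members with enough reads were 0.01 for Kit and Cd48, 0.06 for Flt3, 0.12 for Cd34 and 0.21 for Eng.

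In preCFU-E the member without overlap was Cd48, where 14.0% of all tested genes did not overlap. It stood at 29.2, 36.7 and 36.6 CPM in WT and 65.1, 56.3 and 45.3 in KO, with a log2 change of 0.70 ± 0.308 (1.63-fold, adjusted p = 1, edgeR). With the 6 preCFU-E libraries fitted alone it passed (adjusted p = 0.0207). Slamf1 stood at 12.8, 6.32 and 5.46 CPM in KO around the WT values of 8.21 to 9.26, and Eng at 151 to 185 CPM in KO and 126 to 157 in WT (log2 change 0.23 ± 0.169). No difference of the KO effect between preCFU-E and preMegE passed for any member (all adjusted p = 1, edgeR), 0 members had an unadjusted p under 0.05 for it, and 0.0% of all tested genes passed.

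**Figure D4:**
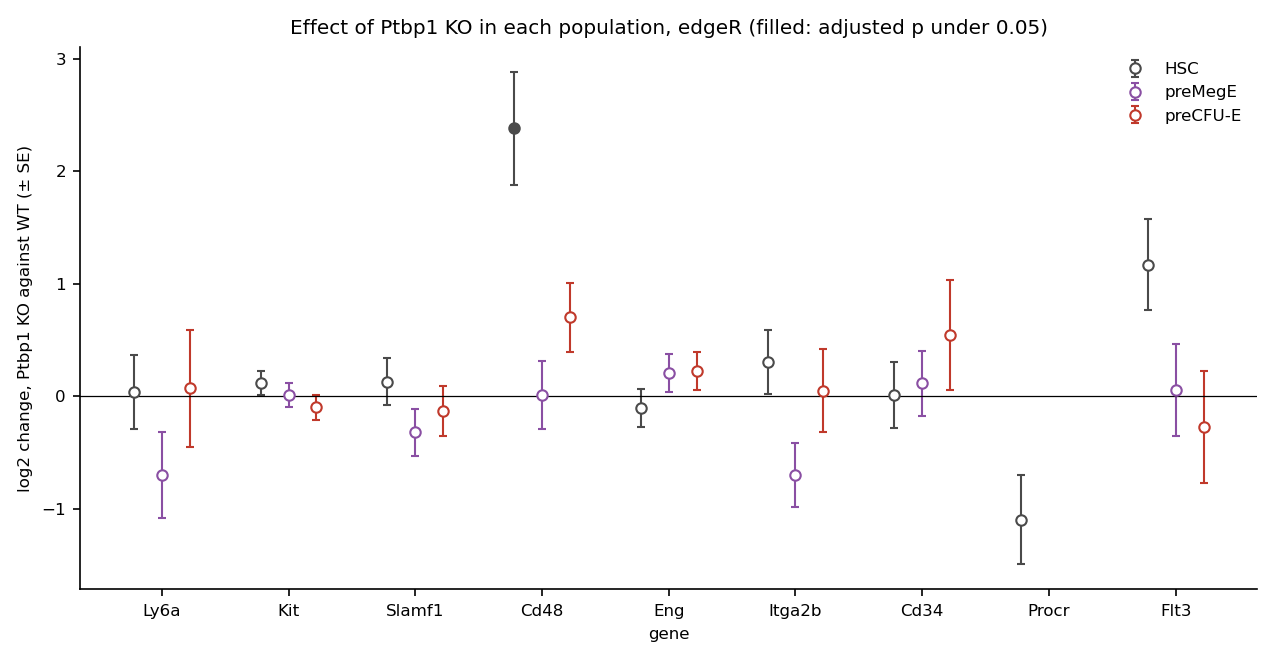
Log2 change with SE (y axis) from WT to Ptbp1 KO of the 9 tested members (x axis) in HSC, preMegE and preCFU-E; the filled point passed the edgeR test. Cd48 in HSC, at 2.38, is the only filled point, and Procr is drawn for HSC only because of its few reads elsewhere.

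The genes that act with the members were taken from a list of 16 partners and ligands, of which 10 could be tested. 0 of them passed in any of the 3 comparisons of KO with WT (edgeR), where 0.844% (HSC), 0.0603% (preMegE) and 0.153% (preCFU-E) of all tested genes did. From HSC to preMegE in WT 5 rose and 3 fell, and from preMegE to preCFU-E 0 rose and 8 fell. Of all tested genes 25.5% rose and 28.2% fell in the first step, and 15.6% rose and 11.2% fell in the second. Itgb3, the β3 subunit that pairs with CD41, did not follow Itga2b in the first step: it stood at 48.0 ± 2.62 CPM in HSC WT, 10.3 ± 2.83 in preMegE WT and 0.0411 ± 0.0711 in preCFU-E WT (SD, n = 3), a log2 change of -2.21 ± 0.427 (adjusted p = 3.09e-04, edgeR) where Itga2b rose. F2r, the thrombin receptor PAR1 through which EPCR-bound protein C can signal, rose from 93.6 ± 4.78 CPM to 648 ± 49.5 (log2 change 2.79) as Procr fell, and stood at 140 ± 3.48 in preCFU-E WT. Tgfbr3, another accessory receptor of the TGF-β family, was at 101 ± 16.8, 281 ± 30.8 and 192 ± 25.5 CPM in the same order, and Tgfbr2 rose by 1.13 and then fell by 1.36 on the log2 scale. Flt3l, the ligand of FLT3, fell by 2.33 on the log2 scale from HSC to preMegE. Cd244a, the mouse receptor of CD48, gave 0, 15 and 23 reads in HSC WT and 73, 135 and 15 in HSC KO (log2 change 2.31 ± 0.912, adjusted p = 0.269, edgeR), 22 to 60 in preMegE WT and 0 in all 6 preCFU-E libraries. Fcer1g, the signalling chain of Fc receptors, stood at 9.10 ± 0.541 CPM in preMegE WT and 0.694 ± 0.486 in preCFU-E WT. Kitl, the ligand of c-kit, was below the filter, with 0.667 ± 0.674 CPM in HSC WT and under 0.1 CPM on average in each of the other groups.

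The counts of the lists that follow stand beside 25.5% of all tested genes that rose and 28.2% that fell from HSC to preMegE in WT. From preMegE to preCFU-E in WT these shares were 15.6% and 11.2%. Of the 9 SLAM family genes, 8 were tested and 1 rose and 4 fell from HSC to preMegE in WT, among them Slamf7 (-2.65) and Slamf6 (-1.95), so Cd48 was the one that rose. 0 rose and 4 fell in the next step, including Cd84 (-1.42) and Cd244a, which was at 0 in preCFU-E. Of 9 Ly6 family genes 4 were tested, and 1 rose and 3 fell in the first step, and 0 rose and 1 fell in the second. Ly6e stood at 289 ± 14.8 CPM in HSC WT and 474 ± 32.6 in preMegE WT and rose by 0.71 on the log2 scale. Ly6a and Ly6h (-1.05) were among the 3 that fell. Of 8 Fc receptor genes 6 were tested, and 1 rose (Fcgr2b) and 2 fell (Fcgrt, -2.90, and Fcer2a, -1.63) in the first step; in the second, 0 rose and 2 fell, Fcgr2b and Fcer1g. All 20 other stem cell surface genes were tested: 9 rose and 9 fell from HSC to preMegE, and 3 rose and 13 fell from preMegE to preCFU-E. Among the falls of the first step were those of Neo1 (-5.67), Robo4 (-5.62), Emcn (-4.75) and Alcam (-4.36). Of 15 surface genes of later progenitors, 5 rose and 3 fell in the first step and 3 rose and 5 fell in the second, among them Csf2rb (-5.37 in the second), the shared chain of cytokine receptors. Of the 15 lineage depletion antigens 9 were tested. 1 rose and 3 fell in the first step, where Itgam and Cd3d changed by -3.50 each, and 1 rose and 4 fell in the second.

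Across these 7 lists 2 genes passed for KO against WT in HSC, Cd48 itself and Cd36, a scavenger receptor. Of all tested genes 0.844% passed there. Cd36 stood at 4.50 ± 4.03 CPM in HSC WT and 0.360 ± 0.321 in HSC KO (SD, n = 3; log2 change -3.61 ± 0.795, adjusted p = 0.0353, edgeR). None of the tested genes of the 7 lists passed in preMegE or preCFU-E, where 0.0603% and 0.153% of all tested genes did.

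Transcript usage was tested in 8 members with at least 2 transcripts above 5% of the gene's TPM (edgeR diffSpliceDGE, Simes p per gene, adjusted over 9361 genes). From HSC to preMegE in WT 2 of 8 passed, where 9.92% of all tested genes did. In Kit (adjusted p = 0.013) a retained-intron transcript (ENSMUST00000136002) stood at 200.6, 89.3 and 97.4 TPM in HSC WT and 8.79, 16.8 and 22.9 in preMegE WT, a usage change of -3.65 on the log2 scale. In Ly6a (adjusted p = 0.0139) a protein-coding transcript (ENSMUST00000189068) stood at 21.7, 8.95 and 11.5 TPM in HSC WT and was estimated at 0 in all 3 preMegE WT libraries. Both calls were lost without any one of the 3 preMegE WT libraries, (adjusted p 0.0597 to 0.122). Without HSC WT replicate 1, Kit was not called (0.0543) and Eng was (0.00653). 0 of 8 passed from preMegE to preCFU-E (0.15% of all tested genes) and 0 of 8 in each comparison of KO with WT, where the shares of all tested genes were 4.38% (HSC), 0.139% (preMegE) and 0.235% (preCFU-E).

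The isoform pairs whose junctions are printed above were picked for description after their values were seen. The share of the short form in the TPM of both forms of Cd34 was 28.4, 29.0 and 39.3% in HSC WT and 53.4, 79.7 and 50.5% in HSC KO. In preMegE it was 31.9, 31.2 and 37.1% in WT and 66.6, 50.5 and 41.4% in KO. Every KO library lay above every WT library in both populations, by 29.0 and 19.4 percentage points on average. With 1 library left out the difference was 19.8 to 34.3 points in HSC, lowest without HSC KO replicate 2, and 12.5 to 25.2 in preMegE, lowest without preMegE KO replicate 1. The usage test did not call Cd34 in either (unadjusted p = 0.373 and 0.549, adjusted p = 1), and with 3 libraries a group an exact permutation test of one share cannot go below p = 0.1. In preCFU-E the summed level of both fell to 0.0454 TPM in the lowest WT library, and no share is read there. The shares are estimates of Salmon from reads that mostly fit both isoforms, and no count of junction reads was used here.

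The Kit form with the 12-base insert took 37.6, 39.7 and 47.2% of the TPM of both forms in HSC WT and 40.1, 63.9 and 43.5% in HSC KO. In preMegE it took 37.8 to 40.7% in WT and 37.5 to 48.0% in KO, and in preCFU-E 36.0 to 40.1% and 34.0 to 46.6%, so the groups overlapped throughout. The short form of Eng took 32.4, 7.56 and 0% of the summed TPM of itself, the long form and a protein-coding transcript of similar length (3403 bases) in HSC WT and 17.5, 14.6 and 21.9% in HSC KO. A protein-coding transcript of Eng of 935 bases, at 4.98 ± 2.36 TPM in HSC WT and 14.7 ± 12.3 in HSC KO (SD, n = 3), is left out of this sum, and was highest, at 28.3 TPM, in HSC KO replicate 2. The short form took 33.4, 43.9 and 40.8% of the sum in preMegE WT and 51.4, 56.6 and 34.1% in preMegE KO, and 37.7 to 50.4% and 38.7 to 51.1% in preCFU-E WT and KO. Each progenitor library lay above each HSC library; the usage change of the short form from HSC to preMegE in WT was 1.84 on the log2 scale and did not pass over all libraries (adjusted p = 0.113 for the transcript and 0.12 for the gene, edgeR). HSC WT replicate 1 had the highest share of the HSC libraries.

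**Figure D5:**
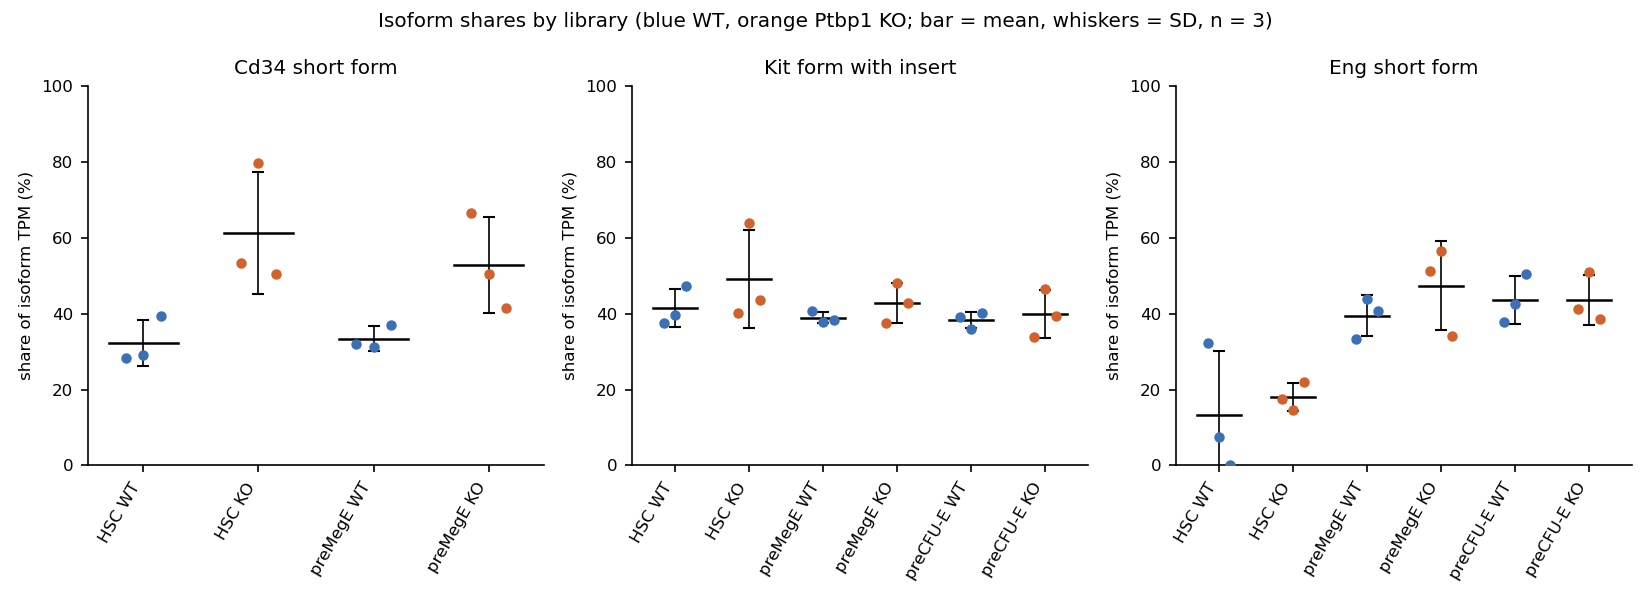
Share of isoform TPM in percent (y axis, 0 to 100) taken by the Cd34 short form, the Kit form with insert and the Eng short form in each library by group (x axis); points are libraries, bars means and whiskers SD over 3 libraries. The share of the Cd34 short form is above every WT library in all 3 HSC KO and all 3 preMegE KO libraries, and that of the Eng short form is lower in HSC than in the progenitors.

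The members fell into patterns over the 18 libraries, given here as a description over log2 CPM, in which libraries of one group share their population. Cd34 and Itga2b followed each other most closely (Pearson r = 0.975), and Ly6a and Procr (r = 0.964) and Kit and Cd48 (r = 0.937) came next, while Cd48 ran against Procr (r = -0.941). In a search of 9930 tested genes (mean of 2 or more on the log2 CPM scale) those most like Ly6a were Oasl2 (r = 0.987), Gbp6 and Rgl2, those most like Procr were Tgm2 (r = 0.983), Dmxl2 and Nbea, and those most like Cd34 were Tek (r = 0.985), Sh2d3c and Cavin2. Itga2b was most like Etv6 (r = 0.984), Plek and Sla, Slamf1 most like Mansc1 (r = 0.993), Ptgs1 and Plcb2, and Cd48 most like Fbxo34 (r = 0.977), Emilin2 and Hdac7. Kit was most like Sord (r = 0.971), B3gnt2 and Galnt1, Eng most like Prkcsh (r = 0.972), Dda1 and Raver1, and Flt3 most like Skap2 (r = 0.956), Ppm1e and Trim34a.

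Promoters of 9 of the 10 members were found in the RefSeq table for GRCm38.p6 (250 bases before to 50 after a gene's start), and Ly6a was not among them. They were searched on both strands for GATA words (AGATAA or AGATAG and TGATAA or TGATAG), which 29.8% of 32851 promoters hold, ETS words (GGAAGT and GGAAGC, 43.6%) and E-box words (CAGCTG or CATCTG or CAGATG, 30.6%). GATA words lay in the windows of Cd34 and Slamf1 and in none of the other 7. The promoters of Cd34 and Itga2b, the pair with the closest pattern, and of Slamf1 are printed with GATA words in capitals. In Cd34 (chr1:194938571-194938870, plus strand) the word is the reverse complement CTATCT, and Itga2b (chr11:102469834-102470133, minus strand) has none but holds 2 ETS words and 1 E-box word. Slamf1 (chr1:171766882-171767181, plus strand) holds 1 word of each kind. A match is a description of letters in this window and shows no binding.
Cd34: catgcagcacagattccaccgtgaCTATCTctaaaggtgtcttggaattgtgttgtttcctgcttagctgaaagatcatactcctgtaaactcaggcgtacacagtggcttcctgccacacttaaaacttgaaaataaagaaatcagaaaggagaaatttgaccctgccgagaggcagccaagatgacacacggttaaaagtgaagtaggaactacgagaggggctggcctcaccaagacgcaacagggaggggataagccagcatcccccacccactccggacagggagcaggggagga
Itga2b: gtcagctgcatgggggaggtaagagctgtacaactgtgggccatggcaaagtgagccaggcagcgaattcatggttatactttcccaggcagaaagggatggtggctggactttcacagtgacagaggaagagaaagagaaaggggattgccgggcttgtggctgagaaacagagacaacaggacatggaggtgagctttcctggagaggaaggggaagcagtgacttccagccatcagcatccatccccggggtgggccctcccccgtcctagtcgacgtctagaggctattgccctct
Slamf1: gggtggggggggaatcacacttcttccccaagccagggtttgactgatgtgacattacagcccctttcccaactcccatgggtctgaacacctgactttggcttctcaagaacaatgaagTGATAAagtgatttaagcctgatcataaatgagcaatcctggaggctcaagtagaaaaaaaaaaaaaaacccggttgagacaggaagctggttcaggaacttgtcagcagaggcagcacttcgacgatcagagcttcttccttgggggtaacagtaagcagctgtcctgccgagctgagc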

How the data were processed

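Total RNA of sorted cells was made into cDNA and libraries with NuGEN Ovation kits, per the labels' protocols. The authors deposited 1 table a library of Salmon 0.12.0 estimated counts (expected counts) and TPM per transcript, per the submitters' processing notes and the file headers; how its index was built was not stated in them. 136176 of 136288 transcripts matched GENCODE M21 on mm10. Estimated counts were summed per gene and rounded. A single edgeR 4.0.16 quasi-likelihood fit (R 4.3.3, TMM factors, filterByExpr) over 18 libraries, with 12 residual degrees of freedom, gave 9 contrasts with Benjamini-Hochberg adjustment over 21565 genes; a call is an adjusted p under 0.05, and CPM uses TMM library sizes. Deposited TPM values served only for levels per length and isoform shares. Usage was tested with diffSpliceDGE. Alternatives included DESeq2 1.42.0 and limma 3.58.1 voom. Both edgeR steps were run on simulated counts with known changes and the same spread in every library. The simulation therefore does not cover the unequal spread of the populations (biological coefficient of variation 0.474 in HSC and 0.127 in preCFU-E). Every pair of replicates of a group differed by more than sampling noise (chi-square per degree of freedom 13.7 or more). Depth sets the precision, and limits for 0 reads cover counting error only.

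The 10 genes and all gene lists were chosen with earlier results of these data known. The members are always named. Of each list of related genes the 4 largest called changes with a mean of at least 1 CPM may be named, and partners whether called or not. For likeness, the 3 genes with the highest Pearson r are named.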

Additional observations from a re-analysis of the deposited data

How the results depend on the processing

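Of 29 calls of single members, 15 held under every alternative run for them, which include leaving out each library in turn. These were the falls of Ly6a and Procr and the rise of Cd48 from HSC to preMegE and the falls of Slamf1, Itga2b, Cd34 and Flt3 from preMegE to preCFU-E, in WT and in KO, and the fall of Ly6a from preMegE to preCFU-E in WT. Below 20 reads a library, depth limits what can be seen. This holds for Cd48 in HSC WT, Procr in preMegE, Ly6a, Flt3 and Cd34 in preCFU-E, and Fcgr3. For KO against WT in HSC the members called were 0 without a filter on low counts and 0 with the groups fitted alone (1 in the report), and 0 to 1 with a library left out; the 1 call without HSC KO replicate 1, and the 1 with limma voom, was Procr and not Cd48. Fitted alone, preCFU-E gave 1 member and DESeq2 gave 1 for the difference of the KO effect between preMegE and HSC, Cd48 in both. Over all tested genes 252 of 13726 and 131 of 16949 passed there. Length-scaled counts gave 3 members for HSC to preMegE in WT and 5 in KO (7 and 8 in the report). Over all tested genes 9562 and 9463 of 21496 passed with length-scaled counts, and 11571 and 11362 of 21565 in the report. With libraries left out, the counts were 6 to 8 and 6 to 9 for HSC to preMegE in WT and KO and 5 to 6 and 4 to 6 for preMegE to preCFU-E, and usage from HSC to preMegE gave 0 to 2 members. Of all tested genes (22523 to 23074), 8991 to 10580 and 9065 to 11254 passed from HSC to preMegE in WT and KO. From preMegE to preCFU-E 3969 to 5058 and 5624 to 7077 passed. The cause was not tested.

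With length-scaled counts Kit (-0.21), Eng (-0.009) and Itga2b (-0.47) turned from HSC to preMegE in KO, where Kit and Eng had passed; the other changes that turned had not passed. With length-scaled counts KO against WT in HSC gave -0.024 for Ly6a, 0.51 for Eng and -0.042 for Cd34, in preMegE -0.005 for Cd48 and in preCFU-E -0.40 for Itga2b. Cd34 in HSC was -0.077 and Ly6a in preCFU-E -0.087 with limma voom, Slamf1 in HSC was -0.002 with protein-coding reads and Cd48 in preMegE -0.002 without a filter. With libraries left out, KO against WT ranged in HSC from -0.30 to 0.25 for Ly6a, -0.22 to 0.032 for Eng, -0.28 to 0.55 for Itga2b and -0.35 to 0.30 for Cd34; in preMegE from -0.048 to 0.088 for Kit, -0.16 to 0.10 for Cd48, -0.13 to 0.24 for Cd34 and -0.15 to 0.25 for Flt3; and in preCFU-E from -0.42 to 0.48 for Ly6a, -0.61 to 0.064 for Slamf1, -0.22 to 0.22 for Itga2b and -0.49 to 0.045 for Flt3. Flt3 from HSC to preMegE in WT ranged from -0.36 to 0.21.

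The main fit did not treat same-numbered replicates as pairs. The deviations of same-numbered libraries from their group means correlated by -0.038 to 0.242, and in 0 of 7 comparisons was every pair over 0.1. In 2 of 7 every library correlated best with its own number. These were the steps from preMegE to preCFU-E in WT (0.076 to 0.242) and in KO (0.017 to 0.047). Whether same-numbered libraries of these populations came from the same animals is not settled by these values. With the replicate number as a block, Itga2b passed from HSC to preMegE in KO (9 members in place of 8), Cd34 in HSC KO against WT turned to -0.069, and the genes called over all features for KO against WT in HSC went from 182 to 94; the other member counts were the same. Over all genes KO against WT in HSC gave 360 calls without a filter, 5 with the groups alone, 307 with limma voom and 647 with DESeq2; in preMegE 27, 36, 13 and 59 in place of 13; and in preCFU-E 54, 252, 24 and 77 in place of 33. With libraries left out these counts were 89 to 595, 4 to 9 (lowest without preMegE WT replicate 2, and 8 without any of the others but preMegE KO replicate 1) and 14 to 27 (14 without preCFU-E WT replicate 2 and 21 without preCFU-E KO replicate 3).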
